A study of Mus musculus with 6 samples.

Results

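The 10 genes described here encode the thioredoxin system (Txnip, Txn1, Txnrd1), 2 glutaredoxins (Glrx, Glrx3), the peroxiredoxins Prdx1 and Prdx2, the glutathione peroxidases Gpx1 and Gpx4 and the superoxide dismutase Sod1. They were taken by gene symbol from the 23282 entries of each count file, and all 10 were present. Glrx3 had no count in any library, and the other 9 passed the filter on low counts. Splenic regulatory T cells (Treg) of C57BL/6 mice were isolated by flow cytometry and left unstimulated, and their RNA was read as tags at the 3′ end of transcripts. There were 3 libraries of IPMK cKO Treg, which carry a conditional knockout of the inositol polyphosphate multikinase gene Ipmk, and 3 of wild type Treg. The age of the mice, the Cre driver, the deleted part of Ipmk and whether each library came from its own animal are not stated in the sources used here. The sample labels call the libraries biological replicates without saying more. The p-values therefore cover the spread between these libraries alone, and part of it may be technical.

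Thioredoxin and glutaredoxin are small proteins that reduce disulfides in other proteins; thioredoxin is recharged by thioredoxin reductase and NADPH, and glutaredoxin by glutathione. Peroxiredoxins and glutathione peroxidases spend that reducing power to remove hydrogen peroxide and lipid peroxides, some of which arise when Sod1 converts superoxide. TXNIP binds thioredoxin and holds it inactive, and it also lowers glucose uptake. In T cells, receptor signals that raise glycolysis are known to lower Txnip, and hydrogen peroxide acts as a signal as well as a hazard.

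Libraries held 8363324 to 8980395 counts in IPMK cKO and 7464546 to 8246993 in wild type, and the ribosomal RNA precursor Rn45s took 16.7% to 32.1% of a library. The targeted gene Ipmk had 3, 21 and 0 counts in IPMK cKO replicates 1 to 3, against 129, 77 and 99 in wild type. Its groups did not overlap, and 5.66% of all genes tested were likewise below wild type in every IPMK cKO library. Even so, edgeR did not call Ipmk (log2 fold change -3.51, SE 1.75, unadjusted p 0.0705, adjusted p 0.9999). A gene that was not called may therefore still differ. The 7 Treg markers summed to 2247 to 2642 CPM (counts scaled to a common library size, after TMM scaling) in IPMK cKO and 2304 to 3150 CPM in wild type, and all 7 were detected. The transcription factor Foxp3 had 85.1, 72.0 and 82.3 CPM in IPMK cKO and 10.3, 80.6 and 29.0 CPM in wild type. Red blood cells are rich in Prdx2, Gpx1 and Sod1. The 10 erythroid markers summed to 0 to 23.9 CPM in IPMK cKO and 1.56 to 67.2 CPM in wild type, and Slc4a1 had no count. The sums were 25.0 to 66.7 CPM in IPMK cKO and 19.7 to 54.0 CPM in wild type for 5 B cell markers (a sixth, Ighm, was not among the entries analysed). They were 21.0 to 53.9 CPM in IPMK cKO and 28.9 to 40.6 CPM in wild type for 5 CD8 T and NK cell markers (Cd8a and Ncr1 had no count). For 7 myeloid markers they were 0 to 6.29 CPM in IPMK cKO and 0 to 3.42 CPM in wild type, with no count of Cd14. The B cell and the CD8 T and NK cell sums were both highest in IPMK cKO replicate 1, and the erythroid sum was 0 there. The part of these cells in the results was not tested. In bulk RNA, fewer cells of a type and less RNA per cell cannot be told apart.

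IPMK cKO replicate 1 stood apart from the other libraries. Among the 3213 genes with a mean of at least 50 CPM, 4.23% were more than 4-fold below the median of the other 5 libraries in it, against 0% to 0.311% in each of the others. In the other direction, 1.06% were more than 4-fold above that median in it, against 0% in each of the others. Of the 6 members that reach this level, Txnip and Txn1 were past the lower limit in this library. The estimate of each detected member, the Txnip to Txn1 ratio and the pathway counts are also given without it.

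**Figure D1:**
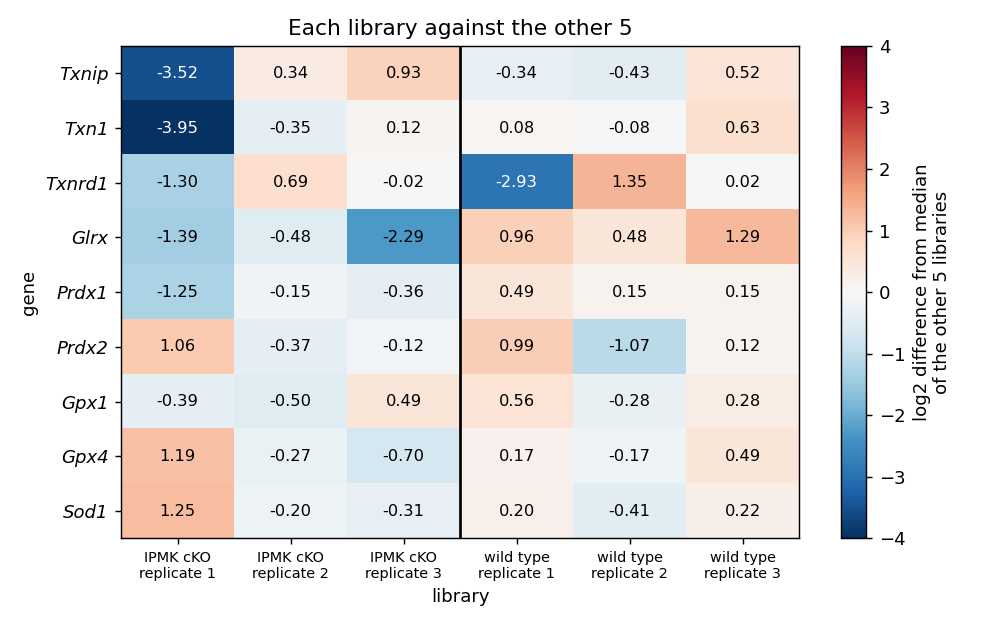
Difference of each library (columns, IPMK cKO left of the line and wild type right of it) from the median of the other 5, in log2(CPM + 0.5), for the 9 detected genes (rows); the numbers are the values coloured. Txnip (-3.52) and Txn1 (-3.95) were far below the others in IPMK cKO replicate 1, Txnrd1 in wild type replicate 1 (-2.93) and Glrx in IPMK cKO replicate 3 (-2.29).

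None of the 9 detected members was called between IPMK cKO and wild type at an adjusted p of 0.05. Neither edgeR's quasi-likelihood test, DESeq2 nor limma-voom called a member. Over all genes edgeR called 0% of 10475 in either direction, and DESeq2 0% higher and 0.0288% lower. At an unadjusted p under 0.05, edgeR had 1 member lower (Glrx) and 0 higher, where 1.19% of all genes were lower and 1.37% higher. In 2 members, Glrx and Prdx1, every IPMK cKO library was below every wild type library, which held for 5.66% of all genes. No member was above every wild type library, which held for 4.74% of all genes. Of the 9 estimates, 3 were above 0 and 6 below, with a median log2 fold change of -0.21, beside 0.03 over all genes tested. Without IPMK cKO replicate 1 the median was -0.33 beside -0.01 over all genes, and Glrx, Prdx1 and Gpx4 were below every wild type library, as were 10% of all genes.

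**Figure D2:**
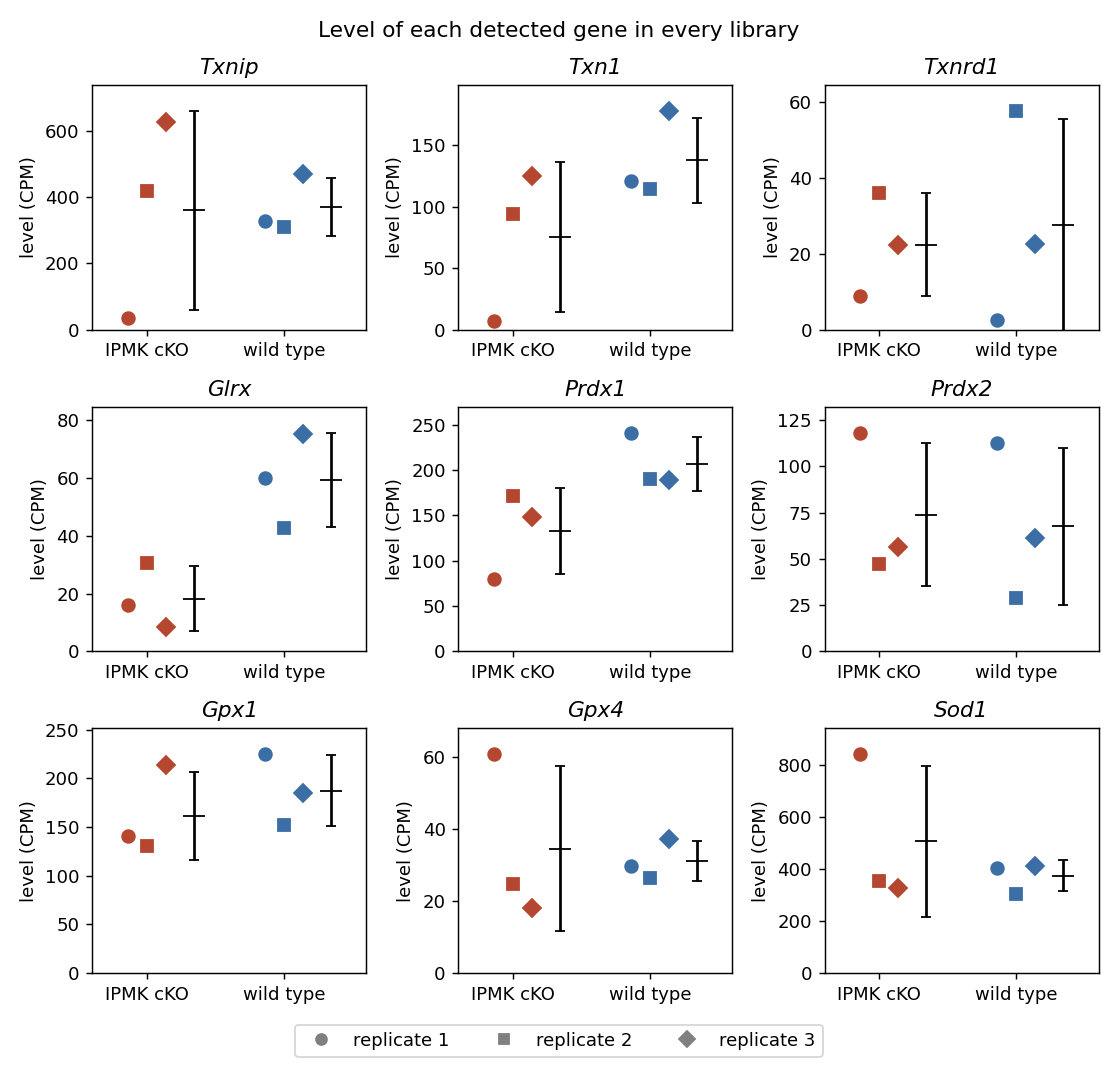
Level in CPM of the 9 detected genes in each IPMK cKO (red, left) and wild type (blue, right) library, with marker shape for the replicate number, and the mean with its SD (black, n = 3; the lower bar for Txnrd1 in wild type ends at the axis). The groups are separate for Glrx (8.32 to 30.6 CPM in IPMK cKO, 42.8 to 75.4 CPM in wild type) and Prdx1 (79.4 to 171 CPM in IPMK cKO, 190 to 241 CPM in wild type) and overlap for the other 7.

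Glrx, the cytosolic glutaredoxin that removes glutathione from protein thiols, was the member with the clearest separation (ENSMUSG00000021591, plus strand of mm10, chromosome 13, 75839868 to 75850154). It had 114, 234 and 82 counts in IPMK cKO replicates 1 to 3, against 498, 313 and 725 in wild type. On the CPM scale these were 16.0, 30.6 and 8.32 in IPMK cKO and 59.9, 42.8 and 75.4 in wild type. Every IPMK cKO library was below the lowest wild type library, and the highest IPMK cKO library and the lowest wild type library were both replicate 2. The means were 18.3 ± 11.3 CPM in IPMK cKO and 59.4 ± 16.3 CPM in wild type (SD, n = 3 each). The estimated log2 fold change of -1.70 (SE 0.56) had an unadjusted p of 0.0112 and an adjusted p of 0.9999 over all genes in edgeR. Without IPMK cKO replicate 1 it was -1.62 (SE 0.56). Among the edgeR settings the unadjusted p was above 0.05 only without wild type replicate 3, where it was 0.0584. The separation of Glrx was known from earlier results of these data, so it is a description.

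The 5 genes whose level followed that of Glrx most closely over the 6 libraries, among 5941 others with a mean of at least 20 CPM, were Ttc1, Tomm40, Csnk1g3, Srek1ip1 and Pyroxd1. Closeness was the root mean square difference of the centred log2 profiles, 0.27 to 0.40. Pyroxd1, a flavin-dependent oxidoreductase of disulfides, is the redox gene among them. It had 12.1, 38.4 and 5.78 CPM in IPMK cKO and 42.8, 24.1 and 39.7 CPM in wild type, so its groups overlapped. Tomm40, the pore of protein import into mitochondria, had 13.9, 26.9 and 5.68 CPM in IPMK cKO and 36.0, 35.4 and 37.9 CPM in wild type. Like Glrx, both were lowest in IPMK cKO replicate 3. None of the 5 was called by edgeR.

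The second glutaredoxin gene, Glrx3, encodes a cytosolic protein that carries iron-sulfur clusters. It had 0 counts in each of the 3 IPMK cKO and 3 wild type libraries, which allows up to 0.304 to 0.422 CPM in IPMK cKO and 0.312 to 0.410 CPM in wild type (3 counts per library, counting error only). These limits hold only if the counted region of Glrx3 takes in its 3′ tags, which the files do not show.

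Txnip, the inhibitor of thioredoxin, had a very uneven level among the IPMK cKO libraries (ENSMUSG00000038393, plus strand of mm10, chromosome 3, 96557957 to 96561883). It had 255, 3192 and 6168 counts in IPMK cKO replicates 1 to 3, against 2737, 2263 and 4528 in wild type. In CPM these were 35.9, 417 and 626 in IPMK cKO and 329, 309 and 471 in wild type. IPMK cKO replicate 1 was far below all other libraries and IPMK cKO replicate 3 was the highest, so the wild type values lay inside the IPMK cKO range. The means were 360 ± 299 CPM in IPMK cKO and 370 ± 88.1 CPM in wild type (SD, n = 3 each). The estimate was -0.04 (SE 0.69) in log2, and without IPMK cKO replicate 1 it turned to 0.49 (SE 0.26), with edgeR adjusted p of 0.9999 and 0.9997. The count of 255 has a counting interval of 225 to 288 (exact Poisson, 95%); such intervals and floors cover counting error only, as reads lacking molecular identifiers are not independent. The antisense gene Gm15441 overlaps Txnip; it had 8.30, 4.05 and 12.6 CPM in IPMK cKO and 0, 1.64 and 13.1 CPM in wild type. In IPMK cKO replicate 1 Txnip ranked 29 from the lowest among the 3213 genes by its difference from the other libraries.

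Txn1, cytosolic thioredoxin itself, was low in the same library (ENSMUSG00000028367, minus strand of mm10, chromosome 4, 57943373 to 57956411). It had 52, 722 and 1227 counts in IPMK cKO, against 1002, 837 and 1706 in wild type. In CPM these were 7.32, 94.3 and 125 in IPMK cKO and 121, 114 and 177 in wild type. IPMK cKO replicate 1 ranked it 16 from the lowest of the 3213 genes, replicate 2 was also below wild type, and replicate 3 lay within the wild type range. The means were 75.4 ± 60.9 CPM in IPMK cKO and 137 ± 34.8 CPM in wild type (SD, n = 3 each). This gave an estimate of -0.87 (SE 0.71) in log2, and of -0.33 (SE 0.30) without IPMK cKO replicate 1, with edgeR adjusted p of 0.9999 and 0.9997.

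Because Txnip and Txn1 encode an inhibitor and its target, and both were low in the same library, their counts were set against each other within each library, where library size cancels. This comparison was chosen after the values were seen. IPMK cKO Treg had 4.90, 4.42 and 5.03 Txnip counts per Txn1 count in replicates 1 to 3, against 2.73, 2.70 and 2.65 in wild type. All 3 IPMK cKO libraries were above all wild type libraries, including IPMK cKO replicate 1, where both genes were low. The mean ratio was 4.78 ± 0.320 in IPMK cKO and 2.70 ± 0.0392 in wild type (SD, n = 3 each), and the geometric mean was 1.77-fold higher in IPMK cKO. The exact permutation test on log2 ratios gave a two-sided p of 0.1, the smallest that 3 against 3 libraries allow, and 0.6 after adjustment over the 36 pairs of detected members. In IPMK cKO replicate 1, with the fewest counts, the exact binomial 95% interval of the ratio was 3.63 to 6.74, and the highest upper bound in wild type was 2.94. A difference of the ratio does not say which of the genes differs, and the size of a ratio depends on how well each transcript is tagged.

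The ratio also varied little within each group. The pooled SD of the log2 ratio was 0.0711, smaller than that of Txnip with any other of the 3212 genes of at least 50 CPM with counts in every library, whose median was 1.69. Much of that median rests on IPMK cKO replicate 1. Without that library the median was 0.467 for Txnip, the SD of the pair was 0.0776, and 5 of these 3212 genes had a smaller one with Txnip and 9 with Txn1. The log2 ratio was 0.83 higher in IPMK cKO with all libraries and 0.81 higher without replicate 1. The ratio of Txnip to another gene was above wild type in every IPMK cKO library for 0.436% of these 3212 genes and below for 0.280%. The ratio of Txn1 to another gene was below for 19.7% of them and above for 0%. Of the 36 member pairs, 6 had ratios that did not overlap between the groups (16.7%). The share was 10.1% over all pairs of genes of at least 50 CPM. These 2 shares are not alike, because the member pairs also include Glrx, Gpx4 and Txnrd1, whose means are under 50 CPM. Apart from Txnip to Txn1, the other 5 were lower in IPMK cKO, namely Glrx to Prdx1, Gpx1, Gpx4 and Sod1, and Gpx4 to Sod1. Each of these 5 holds a gene under 50 CPM. Among pairs of members of at least 50 CPM, only Txnip to Txn1 did not overlap. The ratio of Glrx to another gene was likewise lower without overlap for 78.7% of the genes of at least 50 CPM.

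**Figure D3:**
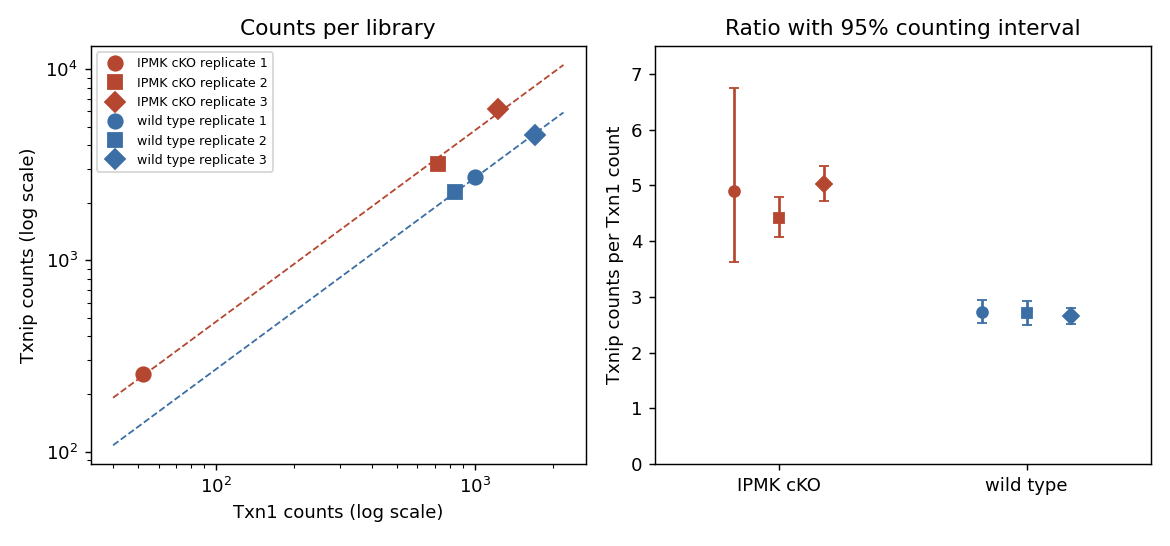
Left, Txnip counts against Txn1 counts per library (log axes), with a dashed line at each group's mean log2 ratio; right, Txnip counts per Txn1 count with the exact binomial 95% interval (counting error only). The IPMK cKO libraries (red) lie between 4.42 and 5.03 and the wild type libraries (blue) between 2.65 and 2.73.

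The promoters of this pair, and of Glrx as the member that stood lowest against wild type, are shown as the 250 bases before the start of transcription (RefSeq, GRCm38.p6, printed along the strand of the gene). Capitals mark matches, on either strand, to CACGTG (the E-box), TGACNNNGC (the core of the antioxidant response element bound by NRF2), CCAAT (the CCAAT box) and CACGAG repeated on the same strand after a gap of 5 bases (the paired element through which the glucose sensors MondoA and ChREBP are known to act on Txnip).
Txnip, chr3:96557707-96557956, plus strand: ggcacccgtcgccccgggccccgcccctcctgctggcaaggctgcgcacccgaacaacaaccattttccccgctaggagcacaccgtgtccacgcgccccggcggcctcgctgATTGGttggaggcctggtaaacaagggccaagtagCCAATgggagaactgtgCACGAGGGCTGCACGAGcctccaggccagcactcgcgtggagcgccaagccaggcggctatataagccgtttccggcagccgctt
Txn1, chr4:57956412-57956661, minus strand: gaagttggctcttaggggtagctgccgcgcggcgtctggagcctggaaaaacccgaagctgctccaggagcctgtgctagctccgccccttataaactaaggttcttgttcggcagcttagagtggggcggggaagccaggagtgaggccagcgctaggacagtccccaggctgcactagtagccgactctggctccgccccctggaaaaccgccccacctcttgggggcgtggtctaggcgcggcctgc
Glrx, chr13:75839635-75839884, plus strand: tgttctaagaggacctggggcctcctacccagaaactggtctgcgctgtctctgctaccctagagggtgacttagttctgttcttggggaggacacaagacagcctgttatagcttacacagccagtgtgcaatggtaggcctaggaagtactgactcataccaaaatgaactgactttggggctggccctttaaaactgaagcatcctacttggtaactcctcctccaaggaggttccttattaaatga
The Txnip window holds the paired element from 85 to 69 bases before the start and a CCAAT box on each strand, at 137 to 133 and 102 to 98 bases before it. Among the first listed windows of 27025 genes, 1 (0.0037%) held the paired element; its letters were chosen with the Txnip window in view. The CCAAT box was in 34.5% of the windows, the antioxidant response core in 10.1% and the E-box in 6.05%. The Txn1 and Glrx windows held none of these 4 motifs. RefSeq lists 2 starts for Glrx, and only the window of the first was searched. The antioxidant response core was in the windows of Prdx1 and Sod1, 133 to 125 and 56 to 48 bases before the start. No motif overlapped another in the windows shown, and a match of letters is not evidence of binding.

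The 5 genes most like Txnip over the 6 libraries by the same measure were Ankrd16, Med10, Clcf1, Sppl2a and Gar1 (root mean square difference 0.13 to 0.23 in log2). Med10 encodes a subunit of the Mediator complex, Clcf1 a cytokine of the interleukin-6 family and Sppl2a a protease that cuts within membranes. Sppl2a had 8.30, 82.6 and 93.2 CPM in IPMK cKO and 64.3, 63.4 and 84.5 CPM in wild type. All 5 were lowest in IPMK cKO replicate 1, and none was called by edgeR.

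Txnrd1, the cytosolic selenoprotein that reduces thioredoxin, varied more within the groups than between them (ENSMUSG00000020250, plus strand of mm10, chromosome 10, 82833951 to 82897712). It had 8.86, 36.1 and 22.2 CPM in IPMK cKO and 2.53, 57.5 and 22.6 CPM in wild type. Replicate 1 was the lowest library in each group. The means were 22.4 ± 13.6 CPM in IPMK cKO and 27.5 ± 27.8 CPM in wild type (SD, n = 3 each). The log2 fold change was -0.30 (SE 0.93), and 0.08 (SE 0.89) without IPMK cKO replicate 1.

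Of the peroxiredoxins, Prdx1 was lower in every IPMK cKO library (ENSMUSG00000028691, plus strand of mm10, chromosome 4, 116685544 to 116700822). Prdx1 encodes an abundant cytosolic peroxidase that draws its electrons from thioredoxin. It had 79.4, 171 and 148 CPM in IPMK cKO and 241, 190 and 190 CPM in wild type. IPMK cKO replicate 1 was well below the others, and replicate 2 came closest to wild type. The means were 133 ± 47.7 CPM in IPMK cKO and 207 ± 29.6 CPM in wild type (SD, n = 3 each). Its estimate of -0.64 (SE 0.34) in log2 had an unadjusted p of 0.0844 and an adjusted p of 0.9999 in edgeR. Without IPMK cKO replicate 1 it was -0.38 (SE 0.25).

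Prdx2, the peroxiredoxin that is most abundant in red blood cells, showed no such separation. It had 118, 47.2 and 56.5 CPM in IPMK cKO and 113, 28.8 and 61.3 CPM in wild type. Replicate 1 was the highest library in each group, and these 2 libraries had erythroid marker sums of 0 and 1.56 CPM, the lowest of all. Wild type replicate 2 had the lowest Prdx2 level and the highest erythroid sum, 67.2 CPM. Whether red blood cells contribute to the Prdx2 counts was not tested. The log2 fold change of Prdx2 was 0.13 (SE 0.53), and it turned to -0.39 (SE 0.49) without IPMK cKO replicate 1. The annotation of Prdx2 (chromosome 8, 84969587 to 84974834, plus strand of mm10) overlaps Junb and Rnaseh2a on the other strand. Junb had 85.5, 190 and 107 CPM in IPMK cKO and 310, 222 and 197 CPM in wild type, and its reads cannot be told from those of Prdx2 where counting did not use strand.

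Gpx1, the cytosolic glutathione peroxidase of hydrogen peroxide (chromosome 9, 108338903 to 108340343, plus strand of mm10), had 141, 131 and 213 CPM in IPMK cKO and 225, 152 and 185 CPM in wild type. The groups overlapped, and the difference of their means was smaller than either SD, at 162 ± 45.1 CPM in IPMK cKO and 187 ± 36.4 CPM in wild type (SD, n = 3 each). The log2 fold change was -0.21 (SE 0.31), and -0.13 (SE 0.29) without IPMK cKO replicate 1. Gpx4, the peroxidase of membrane lipid peroxides whose loss causes ferroptosis (chromosome 10, 80047166 to 80056439, plus strand of mm10), had 60.6, 24.6 and 18.2 CPM in IPMK cKO and 29.7, 26.4 and 37.1 CPM in wild type. IPMK cKO replicate 1 was the highest of all libraries and the other IPMK cKO libraries were the lowest. The log2 fold change of Gpx4 was therefore 0.15 (SE 0.56) with that library and -0.55 (SE 0.49) without it. Gpx4 has a pseudogene in the annotation, Gpx4-ps2, so some of its reads may be shared.

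Sod1, the cytosolic dismutase of superoxide (chromosome 16, 90220754 to 90226329, plus strand of mm10), was also highest in IPMK cKO replicate 1. It had 840, 353 and 325 CPM in IPMK cKO and 405, 304 and 412 CPM in wild type. The other IPMK cKO libraries lay within the wild type range. Scaf4 overlaps Sod1 on the other strand and had 65.7, 107 and 24.1 CPM in IPMK cKO and 63.3, 76.4 and 70.8 CPM in wild type. For Sod1 the means were 506 ± 290 CPM in IPMK cKO and 374 ± 60.2 CPM in wild type (SD, n = 3 each). This gave 0.44 (SE 0.38) in log2, and the estimate turned to -0.15 (SE 0.23) without IPMK cKO replicate 1. In that library Txnip, Txn1 and Prdx1 were thus at their lowest, while Prdx2, Gpx4 and Sod1 were at their highest. The members summed to 1307, 1305 and 1542 CPM in IPMK cKO and 1525, 1225 and 1631 CPM in wild type, so their total overlapped between the groups.

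**Figure D4:**
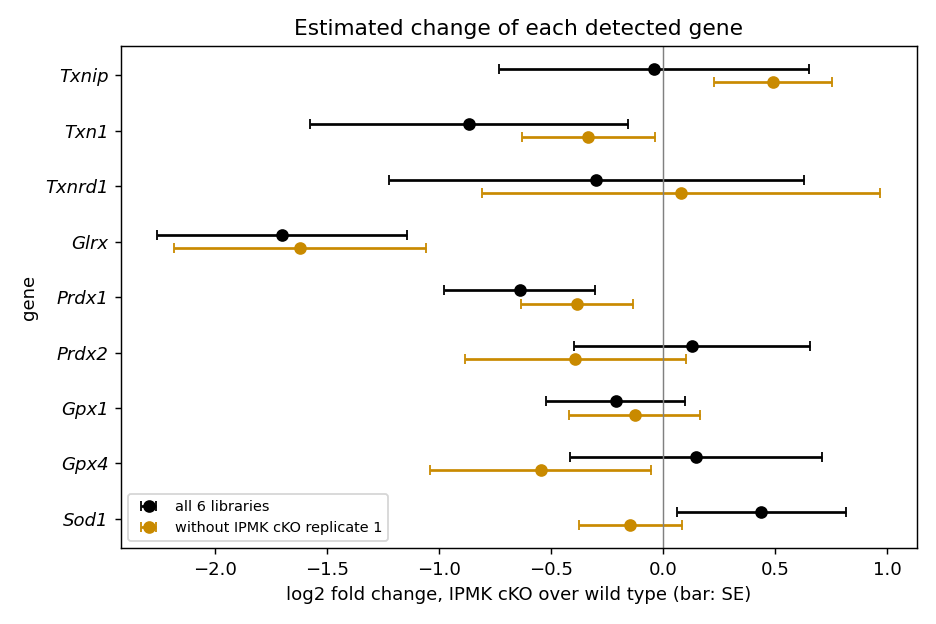
Log2 fold change of IPMK cKO over wild type with its SE from edgeR for the 9 detected genes, with all 6 libraries (black) and without IPMK cKO replicate 1 (yellow). Glrx (-1.70 and -1.62) hardly moved, while Txnip, Txnrd1, Prdx2, Gpx4 and Sod1 changed sign.

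The wider pathway was covered by 71 other genes in 4 lists, of which 59 passed the filter on low counts. None of the 59 passed edgeR's test over all genes in either direction, and 0 had an unadjusted p under 0.05, beside 1.37% higher and 1.19% lower over all genes. Estimates were above 0 for 29 and below 0 for 30, with a median log2 fold change of -0.04, beside 0.03 over all genes. Every IPMK cKO library was above every wild type library for 2 (Glrx5 and Bach2) and below for 4 (Txnl1, Txnrd2, Prdx3 and G6pdx), beside 4.74% above and 5.66% below over all genes. With shares this near to those of all genes, the values of these 6 genes below are descriptions. Without IPMK cKO replicate 1, 61 were tested, 23 estimates were above 0 and 38 below (median -0.12), and 5 genes were above and 9 below every wild type library, beside 9.45% and 10% of all genes. The separated genes include all 6 of the genes named, which leaving out an IPMK cKO library could hardly change. In edgeR 0 of the 61 were called and 0 had an unadjusted p under 0.05. The genes without any count were Gpx8, Sod3 and the NRF2 target Nqo1. Another NRF2 target, Hmox1, was below the filter with 0, 0 and 42 counts in IPMK cKO and 0, 6 and 18 in wild type. The cystine importer Slc7a11 was also below it, with 0, 3 and 0 counts in IPMK cKO and none in wild type.

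**Figure D5:**
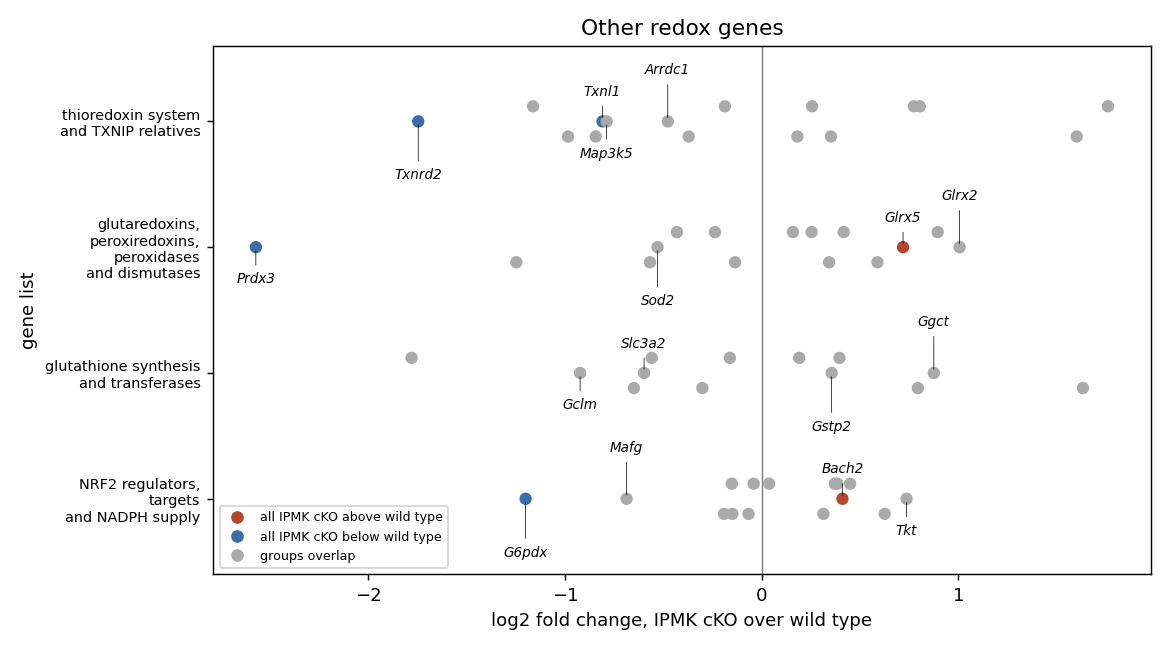
Log2 fold change of IPMK cKO over wild type for the 59 tested pathway genes by list; the 4 with the smallest p in each list are named, and the offset of points within a row has no meaning. Red marks the 2 genes with all IPMK cKO libraries above wild type, blue the 4 with all below, and no gene was called.

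Among 16 tested genes of the thioredoxin system and relatives of TXNIP, 7 estimates were above 0 and 9 below (median -0.28). The smallest p-values were those of the thioredoxin-like protein Txnl1 (-0.81, SE 0.46), the stress kinase Map3k5, which thioredoxin is known to restrain (-0.79, SE 0.50), the arrestin-domain gene Arrdc1 (-0.48, SE 0.33) and the mitochondrial reductase Txnrd2 (-1.75, SE 1.40). Txnrd2 had 9.85, 5.23 and 0 CPM in IPMK cKO and 17.1, 11.5 and 21.9 CPM in wild type. Mitochondrial thioredoxin, Txn2, had 126, 38.3 and 59.1 CPM in IPMK cKO and 64.4, 61.2 and 61.7 CPM in wild type. Unlike cytosolic Txn1, it was highest in IPMK cKO replicate 1; Txn2 was named after its values were seen.

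The list of other glutaredoxins, peroxiredoxins, peroxidases and dismutases had 15 tested genes, with 8 estimates above 0 and 7 below (median 0.16, and -0.13 without IPMK cKO replicate 1). Prdx3, the peroxiredoxin of mitochondria, had 1.13, 0 and 12.4 CPM in IPMK cKO and 42.4, 24.7 and 13.9 CPM in wild type (log2 fold change -2.57, SE 1.37; edgeR unadjusted p 0.0879). Glrx5, the mitochondrial glutaredoxin of iron-sulfur cluster assembly, had 82.9, 64.1 and 95.2 CPM in IPMK cKO and 42.6, 50.6 and 54.0 CPM in wild type (0.72, SE 0.35; edgeR unadjusted p 0.0656). Glrx5 was thus above, and Glrx below, wild type in every IPMK cKO library. Glrx2, which has mitochondrial and nuclear forms, was at 1.01 (SE 0.56) and the manganese dismutase Sod2 at -0.53 (SE 0.59), with overlapping groups.

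For glutathione synthesis and transferases, 6 of 13 tested estimates were above 0 and 7 below (median -0.16), and no gene separated the groups. The amino acid transporter subunit Slc3a2 was at -0.60 (SE 0.39), the regulatory subunit of glutamate-cysteine ligase Gclm at -0.92 (SE 0.72), Ggct at 0.88 (SE 0.88) and the transferase Gstp2 at 0.36 (SE 0.44). Gstp2 counts are uncertain because Gstp1 is nearly identical. For NRF2 regulators, targets and NADPH supply, 8 of 15 estimates were above 0 and 7 below (median 0.04, and -0.05 without IPMK cKO replicate 1). G6pdx, which makes the NADPH that recharges both systems, had 7.74, 6.14 and 4.57 CPM in IPMK cKO and 17.4, 12.2 and 12.8 CPM in wild type (-1.20, SE 0.95). The transcriptional repressor Bach2, known to restrain effector differentiation of T cells, had 214, 214 and 216 CPM in IPMK cKO and 202, 123 and 158 CPM in wild type (0.41, SE 0.29). Transketolase, Tkt, was at 0.74 (SE 0.55) and the small Maf protein Mafg at -0.69 (SE 0.54), with overlapping groups.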

How the data were processed

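Per the labels' protocols, Trizol RNA was made into 3′ tag libraries (Lexogen QuantSeq). The authors deposited raw counts per gene symbol. Of the upstream steps only names are known, per the submitters' processing notes: Bowtie2, edgeR, mm10 and hg19. How reads were counted, with which annotation and strand setting, is not stated, so overlapping genes and near-identical copies are uncertain. Libraries held 7464546 to 8980395 counts.

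The comparison of IPMK cKO with wild type used edgeR 4.0.16 in R 4.3.3, with TMM scaling, filterByExpr (minimum 10 counts, 10475 genes kept), the quasi-likelihood test and Benjamini-Hochberg adjustment over all genes (threshold 0.05). CPM use TMM-scaled library sizes; the SE is the estimate over the square root of F. Ratios of counts were compared by exact permutation. The procedure was run on simulated counts. Its pass limits applied only where the spread was set well below that of these data. Passing them therefore does not show how many real changes would be called here. Counts were also simulated at the spread estimated from these data, without a pass limit, and their outcome is not reported here. Coordinates are from GENCODE M21, and all 10 members were found by symbol in it and in the RefSeq promoter table. The starts of the 2 sources can differ. The Glrx window ends at 75839884, past the GENCODE start of 75839868, and the Prdx1, Gpx1 and Sod1 windows also end past theirs. Alternatives were DESeq2 1.42.0, voom from limma 3.58.1, other scalings and filters, removal of Rn45s, the replicate number as a block and leaving out libraries.

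All members were named by rule, with Ipmk, up to 4 genes of the smallest p in each pathway list and 5 nearest profiles for Txnip and Glrx; Pyroxd1, Tomm40, Med10, Clcf1 and Sppl2a were picked from the last for description. Foxp3, Txn2, Junb, Hmox1, Slc7a11 and the genes without counts were named after their values were seen. The members and lists were chosen with earlier results of these data known. Some marker genes are not reported here by name.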

Additional observations from a re-analysis of the deposited data

How the results depend on the processing

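No member and no pathway gene was called in any of 15 alternative settings, and no gene was called higher. Genes called lower numbered 0 with all libraries in edgeR, 3 in DESeq2 (S100a6, S100a11 and Smpdl3b), 1 without both libraries numbered 1 (Gdpd3) and 0 to 1 when each library was left out in turn (Gdpd3 without IPMK cKO replicate 1). Leaving out each library gave 2 to 4 members below every wild type library (4 without IPMK cKO replicate 3) and a members' median of -0.46 to -0.12. Groups separate more easily with fewer libraries. Of all genes tested, 5.66% were below with all libraries and 10% without IPMK cKO replicate 1. The share over all genes is not given here for the other libraries left out, so these counts of members are descriptions. Members that were separate with all libraries could hardly lose this when a library was left out. Glrx (-2.32 to -1.35), Prdx1 (-0.89 to -0.38) and Txn1 (-1.43 to -0.33) stayed below 0 in these and in the other settings. Txnip ranged from -0.70 to 0.49, when each library was left out, above 0 without IPMK cKO replicate 1 (0.49) or wild type replicate 3 (0.17). Txnrd1 ranged from -0.84 to 0.83, Prdx2 from -0.39 to 0.71, Gpx1 from -0.46 to -0.06, Gpx4 from -0.55 to 0.45 and Sod1 from -0.15 to 0.67. Without both libraries numbered 1 the estimates were 0.42 for Txnip, 0.032 for Gpx1, -0.57 for Gpx4 and -0.079 for Sod1. With library sizes alone Prdx2 (-0.17) and Gpx4 (-0.16) changed sign, as the median of all genes moved to -0.17. In limma-voom Txnip was -0.72, Txn1 -1.48, Txnrd1 0.47 and Gpx4 -0.13. The causes of these changes of sign were not tested. The log2 ratio of Txnip to Txn1 was 0.83 higher in IPMK cKO, and 0.79 to 0.88 when each library was left out. With the replicate block no gene was called, Txnip was -0.64, Txn1 -1.44, Txnrd1 0.32 and Gpx4 -0.037. Deviations of same-numbered libraries correlated weakly, at 0.04, 0.08 and 0.03 over 10475 genes, but each library did so best with its own number. Whether the numbers pair the libraries is not stated in the labels and was not tested. Glrx3 had no count, and whether depth limits it was not tested.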
